A study of Mus musculus with 72 samples.

Results

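The mRNAs of 10 MHC class II antigen presentation genes were followed in the liver and lung of irradiated mice. The genes were the class II chains H2-Aa, H2-Ab1 and H2-Eb1, the invariant chain gene Cd74, the peptide-loading genes H2-DMa, H2-DMb1, H2-DMb2, H2-Oa and H2-Ob, and the transactivator gene Ciita. They were chosen by name from the class II pathway and matched to the array through the transcript accession of each probe. All 10 genes were found, by 16 of the 56605 probes on the array and among 23787 genes named through RefSeq. H2-Ab1 had 4 probes, Ciita, H2-DMa and H2-Ob had 2 each, and the other genes had 1 each. Each gene is described by its brightest probe unless another is named.

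The animals were female C57BL/6 J mice of 6 to 8 weeks, which carried no transgene or deletion named in the labels. X-rays were given once to the whole body, at surface doses from 1 Gy through 2, 4 and 8 Gy up to 12 Gy. Control mice (0 Gy) went through the procedure with no exposure. Tissue was taken 48 h later. Each dose had 3 liver arrays and 3 lung arrays, 36 mRNA arrays in all, and mice are called here by dose and by the sample number in the labels. The labels do not say whether a liver and a lung array with one number came from one animal.

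MHC class II molecules are heterodimers of an alpha and a beta chain that show peptides from endosomes to CD4 T cells. The invariant chain escorts new class II molecules to the endosome and leaves a fragment in their groove. The H2-DM heterodimer removes that fragment and edits the bound peptides, and the H2-O heterodimer restrains H2-DM, mainly in B cells. Ciita is the master transactivator of these genes and works with the RFX complex on the X box and with NF-Y on the Y box of their promoters. B cells, dendritic cells and macrophages carry class II constitutively, and interferon gamma induces it in many other cells. C57BL/6 mice make no E alpha chain, so their surface class II is the A molecule of H2-Aa and H2-Ab1.

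Of the 10 genes, 8 lie together on chromosome 17 in the GRCm38.p6 assembly, in the order H2-Oa (start 34092379), H2-DMa (34119693), H2-DMb2 (34143229), H2-DMb1 (34153191), H2-Ob (34238905), H2-Ab1 (34263227), H2-Aa (34282744) and H2-Eb1 (end 34316674). Ciita lies on chromosome 16, from 10480014 to 10531064. RefSeq promoter sequence was at hand for 7 of the genes, all on chromosome 17, and the 6 short stretches with a Y box are shown. Whether these boxes had a part in the change with dose was not tested. In the 250 bases before the start, 6 of these 7 genes held the Y box letters TGATTGG on one strand or the other, compared with 7.23% of 32851 promoter windows of the same length. The X box core GNAAC is short and was found in 79.6% of the windows. An X core followed on the same strand, after 15 to 30 other bases, by the Y box was found in 5 of the 7 genes and in 0.396% of all windows. The motifs did not overlap. The 6 stretches run from 40 bases before the Y box to 5 bases after it, 5′ to 3′ on the strand of the gene, with the Y box and any X core at that spacing in capitals.
H2-Oa, chr17:34092294-34092345, plus strand: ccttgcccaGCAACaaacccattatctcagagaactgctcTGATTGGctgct
H2-DMb2, chr17:34145117-34145168, plus strand: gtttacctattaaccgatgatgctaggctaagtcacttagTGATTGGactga
H2-DMb1, chr17:34153088-34153139, plus strand: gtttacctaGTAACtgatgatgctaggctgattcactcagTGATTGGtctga
H2-Ob, chr17:34238806-34238857, plus strand: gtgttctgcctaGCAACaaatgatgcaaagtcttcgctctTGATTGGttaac
H2-Aa, chr17:34287862-34287913, minus strand: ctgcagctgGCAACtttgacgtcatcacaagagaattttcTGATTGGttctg
H2-Eb1, chr17:34305766-34305817, plus strand: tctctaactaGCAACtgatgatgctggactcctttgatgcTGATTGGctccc

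The Y box lay 45 bases before the start of H2-Oa, 50 before H2-Aa, 59 before H2-Ob, 61 before H2-Eb1, 63 before H2-DMb1 and 92 before H2-DMb2. The H2-DMb2 stretch resembled that of H2-DMb1 and lacked the letters GNAAC at this spacing. Neither listed start of H2-DMa held the Y box letters in its window. A match is a description of the sequence and was not a measurement of binding.

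Across the arrays, 46.1% to 54.0% of spots were well above background in liver and 54.1% to 64.0% in lung, and 0 probes of the 10 genes were saturated. The arrays came from 5 slides, and slide went with dose. In liver, slide 1 held 0 Gy, 1 Gy and mice 3 and 13 of 2 Gy, slide 2 held 2 Gy mouse 23, 4 Gy, 8 Gy and 12 Gy mouse 6, and slide 3 held the other two 12 Gy mice. In lung, slide 3 held 0 and 1 Gy, slide 4 held 2 Gy, 4 Gy and 8 Gy mice 5 and 15, and slide 5, scanned on another day, held 8 Gy mouse 25 and 12 Gy. Lung doses of 2 Gy and above therefore cannot be told apart from slide in a comparison with 0 Gy. Slide 5, which held all 12 Gy lung arrays, had the lowest lung shares of spots well above background, 54.1% to 54.8%. These shares were 59.2% to 64.0% on the lung arrays of slide 3 and 59.97% to 63.8% on slide 4. The lung array of 12 Gy mouse 16 had 1578 outlier spots, and no other lung array had more than 600. At 0 Gy the 7 liver identity genes, such as Alb and Apoa1, were all lower in lung than in liver (median log2 difference -9.54) and the 6 lung identity genes were all higher (7.46), as the tissue labels state. In homogenized tissue, fewer cells of a type and less RNA per cell cannot be told apart.

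Without irradiation, all 10 genes were higher in lung than in liver, where 18.3% of all probes were called higher. With both tissues normalized together, the log2 difference ran from 1.76 ± 0.248 (SE) for H2-DMa to 2.89 ± 0.300 for H2-Aa, and adjusted p-values from limma ran from 4.69e-12 to 0.0021. H2-Ab1 had a mean log2 intensity of 12.5 ± 0.438 (SD, n = 3) in control liver and 15.2 ± 0.155 in control lung on this joint scale. Of the marker genes of cells that carry class II, 11 of 13 for B cells and 7 of 11 for dendritic cells were also called higher in control lung than in control liver. Of 11 macrophage and Kupffer cell genes 0 were called higher and 6 were called lower, where 8173 of 47376 probes were called lower. That list includes Kupffer cell genes such as Clec4f. The alveolar macrophage list had a mean log2 intensity of 13.1 to 13.6 in control lung (7 genes). In control liver it was 8.24 to 8.51 (6 genes), each tissue being normalized on its own. The part of these cell types in the difference was not tested.

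In liver, class II mRNAs went down with dose, and at each dose all 10 genes had a mean below that of the controls. The H2-DMb2 values among these were at background apart from 1 array at 1 Gy. A call required an absolute log2 difference from 0 Gy above 1 and a Benjamini-Hochberg adjusted p below 0.05 in limma. No gene was called at 1 Gy, where 0.0209% of all probes were called lower and 3 of the 10 genes had an unadjusted p below 0.05, as 7.07% of probes did. The count of genes called lower was 1 at 2 Gy (0.164% of probes), 4 at 4 Gy (0.623%), 9 at 8 Gy (1.37%) and 8 at 12 Gy (1.33%). By plain separation of the mice, all 3 irradiated mice lay below all 3 controls for 3 genes at 1 Gy (6.25% of probes), 4 at 2 Gy (9.44%), 7 at 4 Gy (15.3%), 10 at 8 Gy (15.9%) and 10 at 12 Gy (15%). The counts at 2, 8 and 12 Gy include H2-DMb2, which was at background in those groups and in the controls.

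The chains of the class II molecule were measured well above background on every liver array. H2-Aa, the A alpha chain, had log2 intensities of 10.76, 9.84 and 10.18 in 0 Gy mice 1, 11 and 21 and of 7.05, 7.44 and 7.07 in 12 Gy mice 6, 16 and 26. The groups were far apart, and the spread among 12 Gy mice was smaller than among controls. H2-Aa fell by 3.07 ± 0.355 (SE) on the log2 scale, 8.41-fold (limma adjusted p = 0.000141). H2-Ab1, the A beta chain, read 12.70, 11.80 and 11.80 at 0 Gy and 9.54, 9.69 and 8.95 at 12 Gy. Mouse 1 was the highest control for both chains. H2-Ab1 fell by 2.71 ± 0.358, 6.54-fold (adjusted p = 0.000417). H2-Eb1, the E beta chain, read 12.55, 11.42 and 11.61 at 0 Gy and 9.25, 9.43 and 8.59 at 12 Gy. It fell by 2.77 ± 0.394, 6.80-fold (adjusted p = 0.000718), and again the groups did not overlap. The minor beta chain gene H2-Eb2, which is outside the set of 10, was above background on 1 of 3 control livers and on no other liver array. It entered the test through that control only, and its fold at 12 Gy was at least 1.49 (limma adjusted p = 0.0590, not called).

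Cd74 went with the chains. Its log2 intensity was 13.67, 12.75 and 12.75 in the control livers and 10.57, 10.80 and 10.36 at 12 Gy. Mouse 1 was again the highest, and no 12 Gy mouse came near a control. Cd74 fell by 2.48 ± 0.373 at 12 Gy (5.58-fold, adjusted p = 0.00105) and by 2.02 ± 0.373 at 8 Gy (adjusted p = 0.00462).

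Among the peptide-loading genes of liver, H2-DMa, the DM alpha chain, read 8.42, 7.78 and 7.88 at 0 Gy and 6.13, 6.10 and 5.99 at 12 Gy. The 12 Gy mice lay closer together than the controls, and the groups were apart. H2-DMa fell by 1.95 ± 0.265 (adjusted p = 0.000494). H2-DMb1, a DM beta chain, read 10.42, 9.66 and 9.58 at 0 Gy and 8.19, 8.66 and 8.04 at 12 Gy, and fell by 1.59 ± 0.329 (adjusted p = 0.00883). H2-DMb2, the second DM beta chain, was well above background on 1 of the 18 liver arrays, 1 Gy mouse 22, so liver gave no fold for it.

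The DO genes were dim in liver and reached the background with dose. H2-Oa, the DO alpha chain, read 6.80, 7.04 and 6.91 in controls, 5.54, 5.78 and 5.47 at 2 Gy and 4.49, 4.86 and 4.98 at 12 Gy. It was well above background on every array up to 2 Gy and on none from 4 Gy, so its fold was at least 3.66 at 4 Gy, 4.29 at 8 Gy and 4.41 at 12 Gy (adjusted p = 5.33e-05). H2-Oa was the one gene called at 2 Gy (-1.32 ± 0.220, adjusted p = 0.0159). That call was lost without 0 Gy mouse 11 (adjusted p = 0.0978), 0 Gy mouse 21 (0.0541) or 2 Gy mouse 23 (0.0501). H2-Ob, the DO beta chain, read 6.33, 6.15 and 6.44 at 0 Gy, 4.72, 5.02 and 5.18 at 8 Gy and 5.25, 5.33 and 5.49 at 12 Gy. Its fold was at least 2.52 at 8 Gy (called, adjusted p = 0.000192) and at least 1.93 at 12 Gy, under the minimum for a call.

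Ciita in liver read 8.13, 7.07 and 7.58 at 0 Gy and 5.95, 5.76 and 5.38 at 12 Gy. The groups did not overlap, although control mice 1 and 11 differed by more than 1 log2 unit. Ciita fell by 1.90 ± 0.360 (3.72-fold, adjusted p = 0.00521) at 12 Gy. Its second probe was well above background on 5 liver arrays and on none at 12 Gy, where it gave at least 2.09-fold.

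The middle doses of liver overlapped. At 4 Gy the genes called were H2-Oa (-1.87), H2-Aa (-1.53 ± 0.355, adjusted p = 0.0304), H2-Ob (-1.26) and H2-DMa (-1.22 ± 0.265, adjusted p = 0.0225), and H2-Ab1, H2-Eb1, Cd74 and Ciita had differences of -1.29 to -1.20 with adjusted p of 0.0751 to 0.113. The 4 Gy count dropped from 4 to 2 when 0 Gy mouse 1, 0 Gy mouse 11, 4 Gy mouse 4 or 4 Gy mouse 24 was left out, with H2-Aa and H2-DMa losing their calls. Mouse 14 was the highest of the 4 Gy mice for H2-Aa (9.31), H2-Ab1 (11.44), H2-Eb1 (11.14) and Cd74 (12.31). At 8 Gy every gene other than H2-DMb2 was called, from -2.49 for H2-Aa to -1.33 for H2-Ob, and H2-DMb1 lost its call without 0 Gy mouse 1 (adjusted p = 0.0558). No step between neighbouring doses was called for any gene in liver by limma, with 3, 0, 3, 3 and 1 of the 10 genes at an unadjusted p below 0.05 for the steps 0 to 1, 1 to 2, 2 to 4, 4 to 8 and 8 to 12 Gy. The share of all probes at that p was 7.07%, 10.4%, 10.8%, 10.5% and 9.78% in the same order. The share of probes called lower at a step was 0.0209% from 0 to 1 Gy and 0% at every other step. The order of the doses therefore rests on the whole range rather than on adjacent groups.

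**Figure D1:**
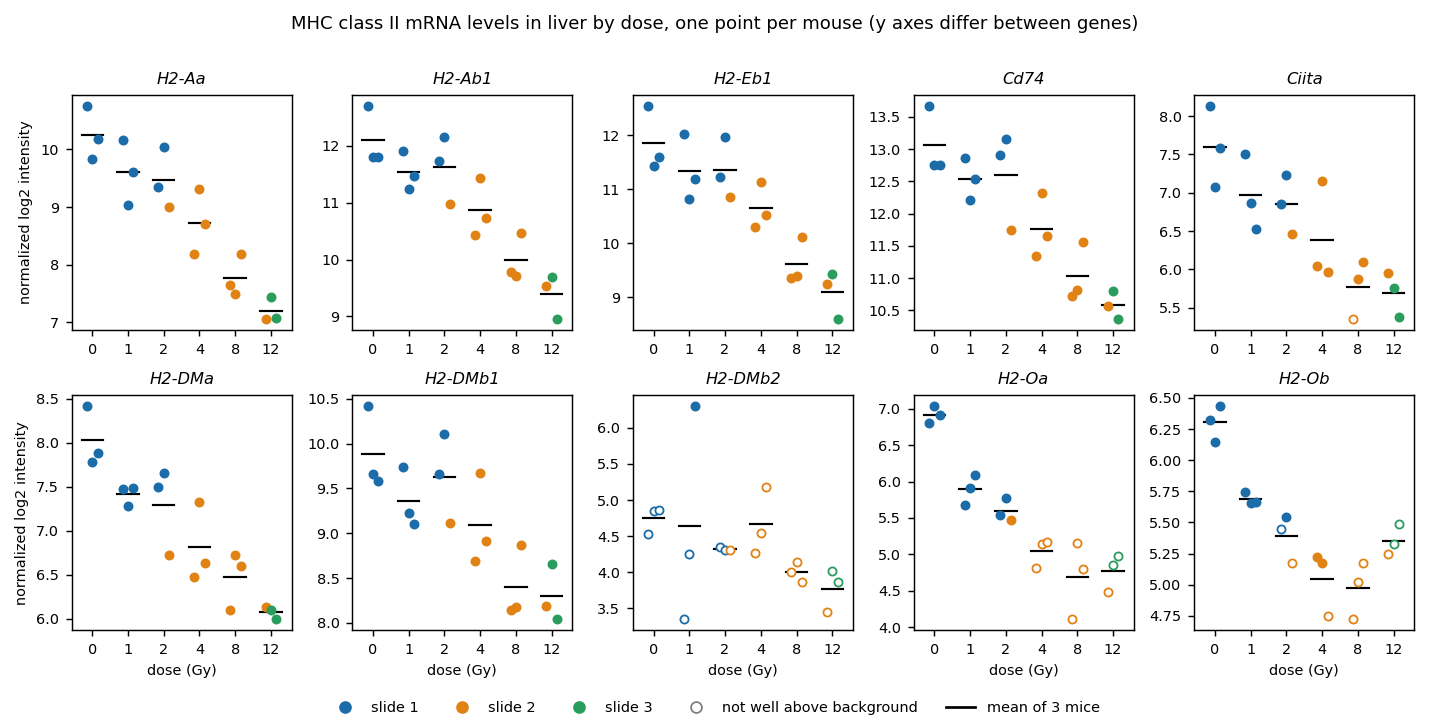
Normalized log2 intensity (y axis, its own range for each gene) of the 10 genes in liver at each dose in Gy (x axis), with 1 point per mouse coloured by slide, a line at the mean of 3 mice and open points where the probe was not well above background. H2-Aa runs from 9.84 to 10.76 in the controls down to 7.05 to 7.44 at 12 Gy, while most H2-DMb2 points and all H2-Oa points from 4 Gy are open.

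A linear fit over the 18 liver arrays called the same 8 genes as 12 Gy alone, where 1.14% of probes were called lower. The fitted change over 12 Gy was -2.98 for H2-Aa, -2.78 for H2-Eb1, -2.67 for H2-Ab1, -2.46 for Cd74, -1.79 for H2-Oa, -1.78 for Ciita, -1.73 for H2-DMa and -1.59 for H2-DMb1, and H2-Ob (-0.75) and H2-DMb2 (-0.94) were not called. With slide as a fixed term the same fit called 0 of the 10 genes, with all 8 values still below 0, from -2.59 for H2-Aa (adjusted p = 0.0571) to -0.98 for H2-DMa. At 12 Gy that term left 1 call, H2-Oa (-2.24, adjusted p = 0.0414), and gave -2.52 for H2-Aa (adjusted p = 0.152), -1.59 for H2-Ab1 (0.348) and -1.20 for Cd74 (0.477). Slides 1 and 2 shared only the 2 Gy group. With the fixed term, liver comparisons of 4, 8 or 12 Gy with 0 Gy therefore rest on 2 Gy mouse 23, the only 2 Gy array on slide 2. With slide as a random block the liver calls at 12 Gy numbered 8.

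In lung the order of the genes by size of change was another one. At 12 Gy the DO genes led, H2-DMb2, H2-DMa and Ciita followed, and H2-Ab1, Cd74 and H2-DMb1 had the smallest differences by their brightest probes. At each dose all 10 genes had a mean below that of the controls. The count called lower was 1 at 1 Gy (0.0114% of probes), 3 at 2 Gy (0.373%), 6 at 4 Gy (1.22%), 8 at 8 Gy (1.99%) and 7 at 12 Gy (4.3%). All 3 irradiated mice lay below all 3 controls for 9 genes at 1 Gy (6.01% of probes), 8 at 2 Gy (6.53%) and all 10 at 4 Gy (7.26%), 8 Gy (6.98%) and 12 Gy (12.8%). Without the minimum change, all 10 genes had an adjusted p below 0.05 at 12 Gy in lung (7.8% of probes were lower by that rule) and 9 of 10 in liver (4.11%). Of all probes called in lung at 12 Gy, 58.7% were lower, compared with 75.6% after scaling the processed signal to its 75th percentile and 72% in the deposited series values.

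H2-Ob read 10.04, 10.43 and 10.47 in control lungs 1, 11 and 21. It read 9.15, 8.45 and 9.05 at 1 Gy, 8.22, 8.17 and 7.89 at 2 Gy and 7.28, 7.02 and 7.07 at 4 Gy. Each of these groups lay wholly below the one before. At 8 Gy it read 6.46, 6.50 and 6.52 and at 12 Gy 6.52, 6.71 and 6.49, so the top 2 doses overlapped. H2-Ob fell by 1.43 ± 0.182 at 1 Gy (limma adjusted p = 0.00603) and by 3.74 ± 0.182 at 12 Gy (13.4-fold, adjusted p = 9.04e-09). The 1 Gy call was the one step between neighbouring doses that was called in lung, where 0.0114% of probes were called lower from 0 to 1 Gy, 0.00227% from 1 to 2 Gy, 0% from 2 to 4 Gy, 0.0114% from 4 to 8 Gy and 0.159% from 8 to 12 Gy. It was lost without 0 Gy mouse 21 (-1.35, adjusted p = 0.0513). The second H2-Ob probe was well above background on 12 lung arrays and on none at 8 or 12 Gy, and gave at least 5.04-fold at 12 Gy.

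H2-Oa read 10.47, 10.94 and 11.23 in control lungs, 9.82, 9.56 and 9.79 at 1 Gy and 6.78, 7.33 and 6.75 at 12 Gy. All 3 groups were separate. It fell by 3.93 ± 0.196 at 12 Gy (15.2-fold, adjusted p = 1.05e-08). At 1 Gy the difference was -1.16 with an adjusted p of 0.0606, which passed without 0 Gy mouse 1 (0.0172) or 12 Gy mouse 16 (0.0331) and brought the 1 Gy count to 2.

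H2-DMb2, at or near background in liver, was measured in lung up to 4 Gy. It read 7.18, 7.98 and 7.61 at 0 Gy, 6.57, 6.16 and 6.62 at 1 Gy and 5.39, 5.49 and 5.40 at 4 Gy, and no array at 8 or 12 Gy was well above background. The fold was at least 5.01 at 8 Gy and at least 5.67 at 12 Gy (adjusted p = 2.3e-05). Its call at 2 Gy (-1.34, adjusted p = 0.0317) was lost when 0 Gy mouse 11 or 21, or any 2 Gy mouse, was left out (adjusted p of 0.104 to 0.157). H2-DMa read 10.82, 11.60 and 10.83 at 0 Gy and 8.94, 9.33 and 8.81 at 12 Gy and fell by 2.06 ± 0.215 (4.17-fold, adjusted p = 1.87e-05). Its second probe was above background on no array of either tissue. H2-DMb1 had a difference of -0.78 ± 0.165 at 12 Gy (adjusted p = 0.00448), under the minimum for a call, and of -1.02 at 8 Gy, where it was called and lost the call without 0 Gy mouse 1 (-0.94) or 8 Gy mouse 15 (-0.98).

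Ciita read 11.76, 11.12 and 11.48 in control lungs and 9.40, 10.13 and 9.30 at 12 Gy, with mouse 16 the highest of the 3. It fell by 1.84 ± 0.283 (3.59-fold, adjusted p = 0.000524), and its second probe fell by 1.92. At 4 Gy the call (-1.16, adjusted p = 0.0440) was lost in 11 of the 18 fits that left out 1 array.

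Of the chains in lung, H2-Aa read 13.42, 14.41 and 13.92 at 0 Gy and 11.82, 12.64 and 12.04 at 12 Gy. Control mouse 11 was the highest, and the groups did not overlap. H2-Aa fell by 1.75 ± 0.239 (3.37-fold, adjusted p = 0.000213). H2-Eb1 read 15.46, 15.26 and 15.30 at 0 Gy and 14.36, 14.11 and 14.14 at 12 Gy, and fell by 1.14 ± 0.135 (2.20-fold, adjusted p = 6.07e-05). H2-Ab1 read 15.53, 15.19 and 15.39 at 0 Gy and 14.47, 14.93 and 14.41 at 12 Gy. All 12 Gy mice were below all controls, with a difference of -0.77 ± 0.198 (adjusted p = 0.0135), less than the minimum for a call. Cd74 read 16.26, 16.32 and 16.42 at 0 Gy and 15.39, 15.83 and 15.49 at 12 Gy, a difference of -0.76 ± 0.164 (adjusted p = 0.00508), also under the minimum. H2-Eb2 was above background on no 12 Gy lung array and was at least 9.06-fold lower (adjusted p = 1.78e-06). At 8 Gy, H2-Ab1 (-0.99) and Cd74 (-0.87) missed the minimum with all arrays and passed it without 8 Gy mouse 25 (-1.22 and -1.07), which read 14.82 and 15.86, the highest of its group for both.

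**Figure D2:**
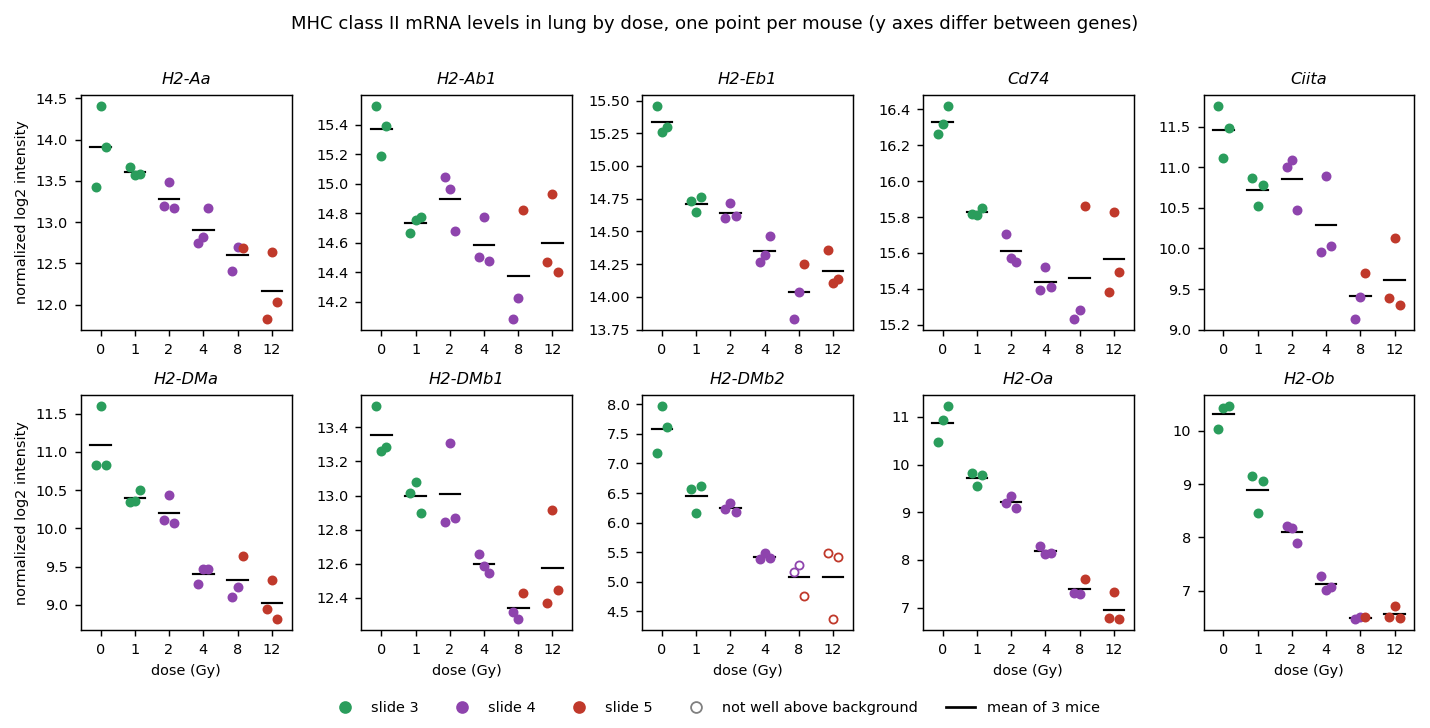
Normalized log2 intensity (y axis, its own range for each gene) of the 10 genes in lung at each dose in Gy (x axis), with 1 point per mouse coloured by slide, a line at the mean of 3 mice and open points where the probe was not well above background. H2-Ob goes down from 10.04 to 10.47 in the controls to 6.49 to 6.71 at 12 Gy, while Cd74 stays between 15.23 and 16.42.

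Because slide went with dose in lung, the doses were also compared by a fit with slide as a fixed term. Slides 4 and 5 shared only the 8 Gy group, so comparisons of 12 Gy with 2 or 8 Gy rest on 8 Gy mouse 25, the one 8 Gy array on slide 5. From 2 to 8 Gy all 10 genes had values below 0, from -1.91 to -0.35, and 3 were called (0.441% of probes in either direction). From 2 to 4 Gy, on 1 slide, all 10 were below 0 (-1.02 to -0.17) and 0 were called by limma (0.0091% of probes), with a smallest adjusted p of 0.204. From 2 to 12 Gy all 10 were below 0 (-2.55 to -0.56) and 1 was called, H2-Oa (adjusted p = 0.00616, 0.334% of probes), compared with 6 without the slide term (5.77%). From 8 to 12 Gy, 7 of 10 were below 0 with the slide term and 3 of 10 without it, and 0 were called in either fit (0.35% of probes with the slide term). The linear trend with slide as a fixed term called H2-Oa (-3.63, adjusted p = 0.0122) and gave values from -0.87 for Cd74 to -2.81 for H2-Ob (adjusted p = 0.211) for genes not called. As a random block, slide left 7 calls at 12 Gy against 0 Gy. Those groups share no slide, so that fit cannot tell dose from slide.

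The liver and lung responses were set against each other by the interaction of tissue and dose in a joint fit of all 36 arrays, given as the liver change minus the lung change over 12 Gy. The test called 4 of the 10 genes, where 7.24% of probes were called in either direction. H2-Ab1 had a difference of -1.79 (95% interval -2.44 to -1.15, limma adjusted p = 0.00027), Cd74 of -1.59 (-2.27 to -0.92, adjusted p = 0.00122) and H2-Eb1 of -1.53 (-2.19 to -0.86, adjusted p = 0.00168), a larger fitted fall in liver by these probes. In control lung these were the brightest of the 10 genes, with mean log2 intensities of 15.4, 16.3 and 15.3 in the same order. Whether signal level had a part in the difference was not tested. H2-Ob differed the other way, by 2.25 (0.98 to 3.53, adjusted p = 0.0122), although its level met the background in liver. H2-Oa (1.28, 0.14 to 2.43, adjusted p = 0.118) and H2-Aa (-0.85, -1.56 to -0.14, adjusted p = 0.0911) were not called. For Ciita the interval of the difference was -0.86 to 0.94 and for H2-DMa -0.56 to 0.93, for H2-DMb1 -1.19 to 0.11 and for H2-DMb2 -0.56 to 1.89. With slide as a fixed term 0 of the 10 genes, and 0 of all 47376 probes, were called for this difference. With slide as a random block the same 4 genes were called, although such a block does not fully separate slide from dose in lung.

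**Figure D3:**
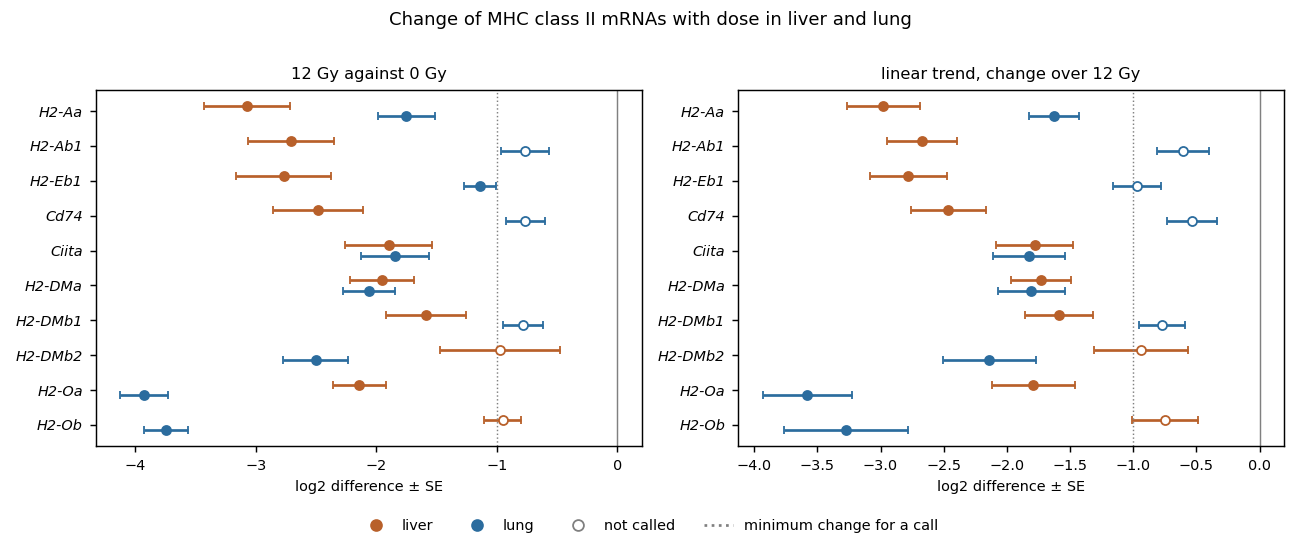
Log2 difference with its SE (x axis) of each gene (y axis) in liver and lung, for 12 Gy against 0 Gy on the left and for the linear trend over 12 Gy on the right, with filled points for genes called and a dotted line at the minimum change. The chains and Cd74 lie further left in liver (H2-Ab1 -2.71 against -0.77), H2-Oa and H2-Ob lie at -3.93 and -3.74 in lung and at -2.14 and -0.95 in liver, where they were not above background and the values are lower bounds on the fall, and Ciita and H2-DMa nearly coincide.

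The 4 probes of H2-Ab1 differed more in lung than in liver in the size of the difference at 12 Gy. At 12 Gy in liver they gave -2.71, -2.72, -2.90 and -3.10 from the brightest to the dimmest, all called. At 4 Gy in liver the dimmest was called (-1.74, adjusted p = 0.0332) and the other 3 were not. In lung at 12 Gy, in the same order, they gave -0.77 (not called), -1.19, -1.75 and -2.18, the last 3 called. The dimmest probe read 12.89, 13.39 and 12.74 in the control lungs and 10.79, 11.16 and 10.53 at 12 Gy. The third probe had no value for 12 Gy mouse 16, whose spot was set aside as an outlier by the scanner software, so that mean rests on 2 mice. The difference between the tissues was called with the second probe (-1.30, adjusted p = 0.00392) and not with the third (-0.71, -1.51 to 0.09, adjusted p = 0.226) or the fourth (-0.94, -1.83 to -0.05, adjusted p = 0.142). Cd74 and H2-Eb1 had 1 probe each, so the same check could not be made for them. The second probe of H2-Ob gave 0.92 for this difference (-0.26 to 2.10, limma adjusted p = 0.299). It was well above background on no liver array, so it could not measure the difference.

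**Figure D4:**
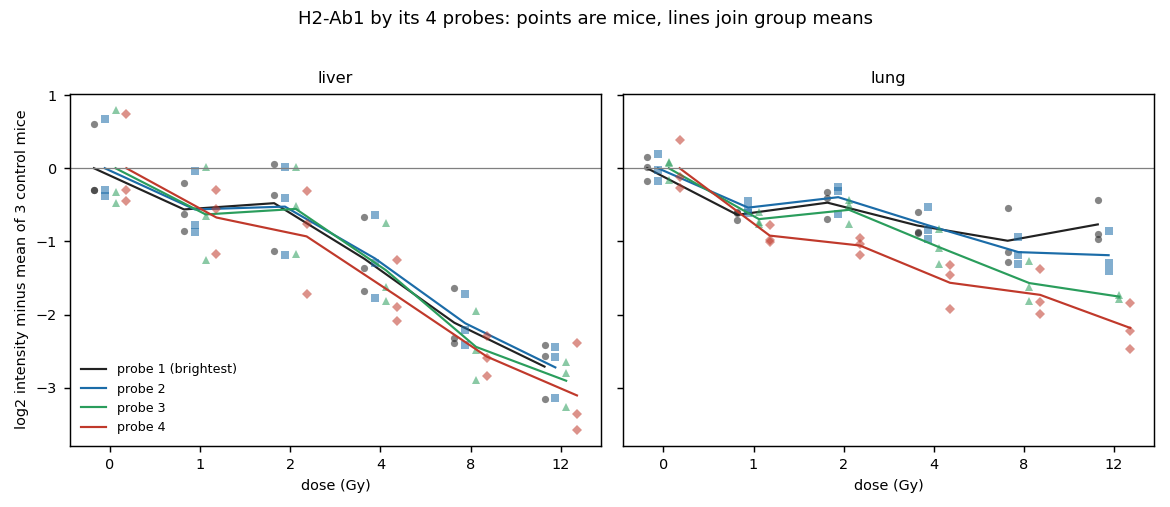
Log2 intensity minus the mean of the 3 control mice (y axis) against dose in Gy (x axis) for the 4 H2-Ab1 probes in liver and lung, with points for mice and lines through group means. The lines run together in liver and end between -3.10 and -2.71, and in lung they spread from -0.77 for the brightest probe to -2.18 for the dimmest.

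Other genes of the pathway were counted at 12 Gy beside the 1.33% of probes called lower in liver and 4.3% in lung. Of 11 genes for antigen processing and invariant chain cleavage, 0 were called in either tissue by limma, with medians of 0.09 in liver and 0.04 in lung. The cathepsin S gene Ctss, whose product trims the invariant chain, had a difference of -0.62 in liver (adjusted p = 0.0809) and -0.63 in lung (adjusted p = 0.0542). Ifi30, a lysosomal thiol reductase gene, had -0.72 in liver (adjusted p = 0.00469) and 0.01 in lung. Of 9 genes for class II transcription, 0 were called in liver and 1 in lung. Rfx5, an X box binding subunit, had -0.17 in liver and -0.44 in lung (adjusted p of 0.745 and 0.259). Irf8, a factor of B cells and dendritic cells, fell by 1.35 in lung (adjusted p = 0.000155) and had -0.73 in liver. In the interferon gamma axis, Ifng, the cytokine itself, was the 1 gene of 8 called in lung (at least 2.03-fold lower, with no 12 Gy array above background, adjusted p = 0.0121). Of 5 costimulation genes, Cd83 was called in liver (-1.16, adjusted p = 0.0277) and none in lung, where Cd83 had -0.79 (adjusted p = 0.0153). Of 11 class I presentation genes, 2 were called lower in liver, the immunoproteasome subunit Psmb9 (-1.08) and the chaperone Calr (-1.06). In lung 3 were called lower, led by the class I transactivator Nlrc5 (-1.33) and the peptide transporter subunit Tap1 (-1.12). The class I chains H2-K1 (0.09 in liver, 0.22 in lung) and H2-D1 (0.24 and 0.35) were not called.

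Markers of the cells that carry class II moved with dose as well. At 12 Gy, 7 of the 12 B cell markers tested in liver were called lower (median -1.48, or -1.43 with dim genes at their bound) and 12 of 13 in lung (median -3.82, or -3.80), where 1.33% and 4.3% of all probes were. Ms4a1, which encodes CD20, was at least 7.07-fold lower in liver, where no 12 Gy array was above background, and fell by 5.84 on the log2 scale in lung. Fcmr, the IgM Fc receptor gene, was at least 7.89-fold lower in liver and fell by 5.99 in lung. The mean log2 intensity of the B cell list ran from 6.32 to 6.66 in control livers and 4.69 to 4.93 at 12 Gy, and from 9.66 to 10.6 in control lungs and 6.33 to 6.58 at 12 Gy. All B cell markers tested were above background on at least 1 control array, and at 12 Gy 8 of 12 in liver and 7 of 13 in lung were above background on none. Of 11 dendritic cell markers, 7 were called lower in liver (median -1.06) and 5 in lung (median -0.86). The chemokine receptor gene Ccr7 was at least 5.02-fold lower in liver and fell by 3.14 in lung. Flt3, the receptor for a dendritic cell growth factor, was above background on no 12 Gy array of either tissue and was at least 2.32-fold lower in liver and at least 10.9-fold lower in lung. In liver, Flt3, Xcr1 and the B cell gene Cd79a were above background on control arrays alone, as was Xcr1 in lung. These genes entered the test through the controls only, which favours a lower value after irradiation. The dendritic list ran from 6.79 to 6.91 in control livers and 5.72 to 5.99 at 12 Gy, and from 9.83 to 9.997 and 8.11 to 8.74 in lung, with 6 and 2 of the 11 above background on no 12 Gy array. Their part in the class II result was not tested.

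No gene of the macrophage and Kupffer cell list met both parts of the call rule. Of the 11 macrophage and Kupffer cell genes, 0 were called at 12 Gy in either tissue by limma, with a median of -0.67 in liver and 0.03 in lung. In liver 8 of the 11 had an adjusted p below 0.05 without reaching the minimum change, among them the Kupffer cell lectin Clec4f (-0.72), the CSF1 receptor gene Csf1r (-0.75) and the complement gene C1qb (-0.93). By that adjusted p alone, 7.02% of all liver probes passed in either direction and 4.11% were lower. The list ran from 11.3 to 11.4 in control livers and from 10.8 to 10.9 at 12 Gy. In lung, 0 of 7 alveolar macrophage genes and 3 of 5 monocyte genes were called lower (4.3% of probes). The 6 alveolar macrophage genes tested in liver had a median of -0.72. Of these, Chil3 and Krt79 were above background on no 12 Gy array and were at least 4.31-fold and 1.80-fold lower. T cells of mice carry little class II, and their markers were followed for comparison. Of 9, 3 were called lower in liver (median -0.58, 1.33% of probes) and 9 in lung (median -3.63, 4.3% of probes). The list had a control lung range of 9.86 to 11.9, in which 1 mouse stood above the others at 9.86 and 10.2. Among the alveolar type 2 genes, 0 of 4 in liver and 1 of 6 in lung were called, the surfactant protein gene Sftpb (-1.18, adjusted p = 0.0422).

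**Figure D5:**
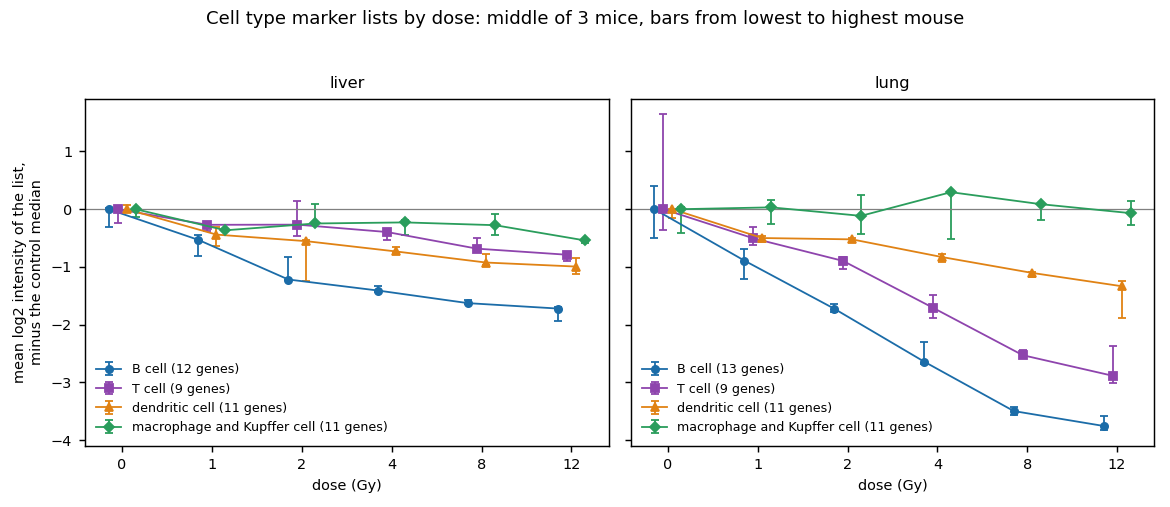
Mean log2 intensity of each marker list minus the control median (y axis) against dose in Gy (x axis) in liver and lung, with the middle of 3 mice as the point and bars from the lowest to the highest mouse. The B cell list goes down in both tissues, and the dendritic cell list goes down less than the B cell list in both. The T cell list goes down further in lung than in liver, and the macrophage and Kupffer cell list stays close to 0 in lung.

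The genes whose levels were most like H2-Ab1 were found by Pearson correlation over the 18 arrays of a tissue, as a description, since all arrays share the dose series. Over liver 4 members stood above every other gene, with r of 0.992 for Cd74 and for H2-Eb1, 0.984 for H2-Aa and 0.969 for H2-DMb1. H2-DMa (0.951) and Ciita (0.936) came after the 5 nearest other genes, with lower values for H2-Oa (0.783), H2-Ob (0.637) and H2-DMb2 (0.387). Those 5 in liver were Gbp6 (0.960), Cd52 (0.957), Samhd1 (0.954), Wdfy1 (0.953) and Cotl1 (0.952). Over lung the members were more scattered, from 0.895 for Cd74 and 0.882 for Ciita to 0.651 for H2-Aa. The 5 nearest other genes there were Kif21b (0.943), Pstpip1 (0.906), Rab37 (0.904), Cx3cr1 (0.903) and Gpr132 (0.897), which shared no gene with the 5 of liver.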

How the data were processed

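Total RNA of mouse liver and lung was amplified from its poly(A) fraction, labelled and hybridized to 1-colour Agilent arrays, and the authors deposited scanner tables with a spot intensity per array (Agilent Feature Extraction 11.5.1.1) and a table of series values, used here as an alternative. From the deposited intensities, the median signal was background corrected (limma 3.58.1 in R 4.3.3, normexp, offset 0). Control spots were dropped, outlier spots set to missing, and arrays quantile normalized within each tissue, put on the log2 scale and averaged over the spots of a probe. The test took probes that the scanner software rated well above background on 1 array or more, 38362 in liver, 43979 in lung and 47376 over both. A limma model of 6 dose groups, and a linear dose term, was fitted per tissue. A joint fit of 36 arrays gave the difference between tissues. Probes were called at an absolute log2 difference above 1 and a Benjamini-Hochberg adjusted p below 0.05 over all probes tested. Where a group had no array above background, a fold is a lower bound.

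The genes and lists were chosen with earlier results of these data known, and genes of other lists are named by the size of their change at 12 Gy. Probes were named through RefSeq accessions (GRCm38.p6), and 9009 probes with Ensembl names were not mapped here. The miRNA arrays were not used here. The number of arrays limits the precision, and p-values set each difference against the spread between these samples. Replicate numbers shared by the tissues were checked as pairs. The deviations of same-numbered liver and lung arrays correlated at -0.0509 to 0.0463, with 0 of 18 above 0.1, so the main fits have no replicate block. Scripts were tested on simulated data. Alternatives were another offset, scaling, filter, the deposited series values, slide as a fixed or random term, and leaving out each array. In the joint fit the liver and the lung array with the same number were left out together.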

Additional observations from a re-analysis of the deposited data

Results flagged for a closer look

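The dose trends of 4 genes differed between liver and lung by the interaction test in limma, given as liver minus lung on the log2 scale over 12 Gy. The differences were -1.59 for Cd74, -1.79 for H2-Ab1, -1.53 for H2-Eb1 and 2.25 for H2-Ob. For H2-Ob no liver array at 8 or 12 Gy was well above background. Its liver fall is therefore a lower bound, and the size of its difference between tissues is not known. The third and the fourth H2-Ab1 probe did not reach the threshold, and slide as a fixed term removed all 4 calls. The second H2-Ob probe was well above background on no liver array and could not measure the difference. Groups of 3 mice were too small for the test of single outlying mice.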

How the results depend on the processing

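Most values kept their direction and side of the threshold. Outside the fits that left out arrays, 1235 values of single genes did, 64 lost a call, 47 gained one and 8 changed sign. Counts of the 10 genes called that moved by over 1.5 times are given here. With slide as a fixed term, the count went from 1 to 0 in liver at 2 Gy, 4 to 0 at 4 Gy, 9 to 1 at 8 Gy and 8 to 1 at 12 Gy, from 8 to 0 for the liver trend, 6 to 1 for the lung trend and 4 to 0 for the difference between tissues, a fit with fewer degrees of freedom. In that fit the liver counts at 4, 8 and 12 Gy rest on 2 Gy mouse 23. With slide as a random block the count went to 2 in liver at 4 Gy and to 2 in lung at 1 Gy, where the neighbouring step from 0 to 1 Gy is the same contrast. The 1 Gy lung count and the neighbouring steps in lung were also 2 with a filter of at least 3 arrays, with the deposited series values, with the joint normalization, with an offset of 50 and with scaling to the 75th percentile. In liver at 2 Gy the count was 0 with the series values, the offset of 50 and the 75th percentile, and 2 with the joint normalization and with no minimum change, and at 4 Gy it was 7 with the joint normalization. With no minimum change the lung trend had 10. The difference between tissues had 7 with the series values and 7 with the 75th percentile, which moved the median of all probes from -0.08 to 0.10 and 0.07. The share of called probes that were lower went from 49.2% to 29.5% and 24.9%, and in the lung trend from 61.7% to 73.7% and 74.4%.

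Signs turned for some values that were not called. The Ciita difference between tissues was -0.23 with the series values and -0.17 with the 75th percentile. It was -0.12 to 0.24 over the fits that left out the liver and the lung array with the same number. The H2-DMa difference between tissues was -0.00995 with the series values. H2-DMb1 in liver at 2 Gy was 0.00079 with slide as a fixed term and -0.50 to 0.011 when arrays were left out. H2-DMb2 was -0.42 for the difference between tissues with slide as a fixed term, and in liver at 1 Gy 0.76 with the series values, 0.079 with the offset of 50, 0.77 with the 75th percentile and -0.22 to 0.53 when arrays were left out. In liver at 4 Gy it was -0.33 to 0.12 when arrays were left out.

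In the joint fit, the liver and the lung array with the same number were left out together. That gave 10 to 10 calls for control lung against liver and 4 to 5 for the difference between tissues. Leaving out each array within a tissue gave, in liver, 0 to 0 at 1 Gy, 0 to 1 at 2 Gy, 2 to 5 at 4 Gy, 8 to 9 at 8 Gy, 8 to 9 at 12 Gy and 8 to 9 for the trend. In lung it gave 0 to 2, 2 to 3, 4 to 6, 7 to 10, 7 to 7 and 6 to 7 in the same order. Neighbouring steps gave 0 to 0 in liver and 0 to 2 in lung. With the replicate block the counts were 4 for the difference between tissues and 10 for the controls, and no call changed. The cause of these moves was not tested. Signal near background limits H2-DMb2, H2-Oa and H2-Ob in liver.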
